A study of Mus musculus with 4 samples.

Results

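The oxidative phosphorylation genes described here are the nuclear genes for subunits of the mitochondrial respiratory complexes and of ATP synthase, with their assembly factors. They were taken by gene symbol from the platform annotation: all symbols starting with Nduf, Uqcr or Atp5, the Sdh subunits and Sdhaf factors, Cyc1, and the cytochrome c oxidase symbols Cox5, Cox6c, Cox7b, Cox7c and Cox10 to Cox19 where present. This gave 93 genes, each read by 1 probe set, out of 22206 probe sets on the array. They fell into 6 core and 30 other subunits of complex I and 8 of its assembly factors, 4 subunits and 4 assembly factors of complex II, 9 subunits of complex III, 8 subunits and 7 assembly or haem a genes of complex IV, and 12 main and 5 small membrane subunits of ATP synthase. The treated cells were Neuro-2a cells, a mouse neuroblastoma line from albino strain A, given deltamethrin, a pyrethroid insecticide, at 30 µM for 24 h (2 arrays). The control cells received the vehicle, 0.1% DMSO, for the same 24 h (2 arrays). Both groups were semi-confluent cultures of 1 line in serum-containing medium, and RNA with an integrity number above 9 was labelled from 500 ng.

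In mitochondria, complex I takes electrons from NADH and complex II takes them from succinate. Both hand them to ubiquinone, from which they pass through complex III, cytochrome c and complex IV to oxygen. Complexes I, III and IV pump protons, and ATP synthase (complex V) uses the returning protons to make ATP. Each complex except complex II joins subunits made from nuclear genes, as measured here, with subunits made from mitochondrial DNA, and assembly factors fold, load and join the parts without staying in the finished enzyme. Neurons draw heavily on this pathway, whereas proliferating tumour lines such as neuroblastoma lines also rely on glycolysis.

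None of the 93 genes was called in limma at an adjusted p below 0.05, where 0.432% of all probe sets were (96 of 22206), and the smallest adjusted p among the genes was 0.209. At an unadjusted p below 0.05 there were 4 of 93, or 4.3%, against 13.7% of all probe sets. Lower in deltamethrin-treated cells were 3 of the 4, Uqcrh, Sdhd and Atp5g3, where 6.84% of all probe sets were lower at that threshold. Ndufa9 was the 1 with a higher estimate, against 6.83% of all probe sets. Estimates were small throughout: the median size of a log2 fold change, sign dropped, was 0.13 over the 93 genes and 0.20 over all probe sets. An estimate of at least 0.5 in size was seen for 2 of the 93 genes, Sdhd and Uqcrh, against 12.8% of all probe sets. Since dim probe sets could set that share, it was also taken over the 13320 probe sets above the 40th percentile of level, where it was 15.5%.

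How far these 2 arrays a group bound a change was read from the 95% interval of each log2 fold change in limma. That interval lay inside -1 and 1, which is within a 2-fold change either way, for 91 of the 93 genes and for 84.5% of all probe sets. The exceptions were again Sdhd and Uqcrh, whose intervals ended at -1.26 and -1.19. The standard errors ran from 0.16 to 0.26 over the 93 genes, with a median of 0.17. For most of the genes a small change could thus not be told from 0.

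**Figure D1:**
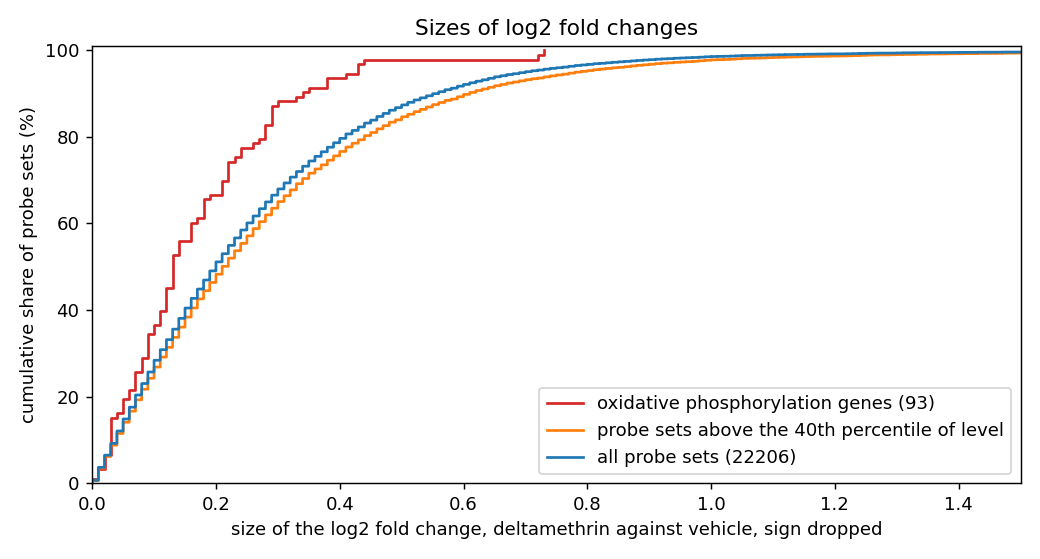
Cumulative share of probe sets (vertical axis, percent) against the size of the log2 fold change with the sign dropped (horizontal axis), for the 93 oxidative phosphorylation genes, the probe sets above the 40th percentile of level and all 22206 probe sets. The line of the 93 genes lies left of the others, with medians of 0.13, 0.21 and 0.20, and 2 genes stand alone beyond 0.5.

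Promoter windows are shown for the 4 genes at an unadjusted p below 0.05, because they hold the estimates farthest from 0 relative to their error. Each is the 300 bases from RefSeq on GRCm38.p6, 250 before and 50 after the annotated start, 5′ to 3′ on the gene's own strand. Capitals mark matches to 4 motifs searched on both strands: the NRF1 motif, the ETS or GABP motif CCGGAAGT, the YY1 motif and the hypoxia response motif ACGTGC. The windows lie at chr4:116075021-116075320 for Uqcrh, chr9:50603800-50604099 for Sdhd, chr2:73911277-73911576 for Atp5g3 and chr6:126849095-126849394 for Ndufa9, all on the minus strand.
Uqcrh: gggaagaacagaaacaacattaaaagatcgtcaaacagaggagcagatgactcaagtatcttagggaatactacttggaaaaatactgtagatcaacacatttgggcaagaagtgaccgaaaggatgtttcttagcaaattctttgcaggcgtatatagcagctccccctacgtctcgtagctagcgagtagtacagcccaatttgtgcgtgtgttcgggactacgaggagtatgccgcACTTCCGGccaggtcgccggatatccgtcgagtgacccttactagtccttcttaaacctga
Sdhd: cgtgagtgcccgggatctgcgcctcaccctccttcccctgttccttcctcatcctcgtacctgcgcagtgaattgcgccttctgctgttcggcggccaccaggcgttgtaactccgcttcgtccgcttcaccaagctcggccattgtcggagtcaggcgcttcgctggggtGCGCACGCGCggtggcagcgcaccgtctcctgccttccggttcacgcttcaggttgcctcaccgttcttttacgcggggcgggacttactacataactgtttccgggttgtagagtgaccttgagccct
Atp5g3: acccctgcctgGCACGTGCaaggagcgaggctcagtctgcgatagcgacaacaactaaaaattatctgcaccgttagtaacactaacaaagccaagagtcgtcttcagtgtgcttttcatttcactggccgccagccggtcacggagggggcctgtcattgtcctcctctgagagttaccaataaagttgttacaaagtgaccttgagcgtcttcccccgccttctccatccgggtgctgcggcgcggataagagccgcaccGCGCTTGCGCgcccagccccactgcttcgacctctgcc
Ndufa9: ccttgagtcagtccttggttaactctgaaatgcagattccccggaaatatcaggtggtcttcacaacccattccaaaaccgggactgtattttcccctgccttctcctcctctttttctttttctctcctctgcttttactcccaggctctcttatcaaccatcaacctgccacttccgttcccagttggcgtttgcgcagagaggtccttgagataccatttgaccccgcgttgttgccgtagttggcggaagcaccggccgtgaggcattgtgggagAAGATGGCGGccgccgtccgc
The capitals show 1 ETS or GABP match just before the start of Uqcrh, 1 NRF1 match before the start of Sdhd and 1 YY1 match after the start of Ndufa9. Atp5g3 had an NRF1 match after its start. At its far upstream end it had overlapping hypoxia response matches on opposite strands, GCACGT at -239 and ACGTGC at -237 relative to the start.

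NRF1, GABP and YY1 are transcription factors known to bind many nuclear respiratory genes. A RefSeq window was given for 78 of the 93 genes. The NRF1 motif stood in 20 of these 78 genes (25.6%) and in 5.19% of all 27025 genes with a window. YY1 matched in 7 of the 78 (8.97%) against 0.995% of all genes, the ETS or GABP motif also in 7 (8.97%) against 4.31%, and the hypoxia response motif in 3 (3.85%) against 6.68%. The 20 genes with an NRF1 match had a median log2 fold change of 0.12, with 14 higher and 6 lower estimates. The 58 without one had a median of 0.03, with 34 higher and 23 lower. With and without a match, the medians were 0.03 and 0.07 for the ETS or GABP motif, 0.05 and 0.05 for YY1, and 0.19 (3 genes) and 0.05 for the hypoxia response motif. None of these differences was tested. The factors' own transcripts were not called: Nrf1 was at -0.43 ± 0.19 (log2 fold change ± SE, n = 2 arrays each), Gabpa also at -0.43 and Yy1 at -0.10.

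Complex I holds the most of the 93 genes and had the most with higher estimates, 33 of 44, where 57 of all 93 were higher. Of its 30 other subunits, which surround the catalytic core, 26 had a higher and 4 a lower estimate in deltamethrin-treated cells, with a median log2 fold change of 0.13. Over all probe sets 46.4% of estimates were higher and the median was -0.02. Both deltamethrin arrays lay above both vehicle arrays for 13 of the 30, where 20.3% of all probe sets did so. Above the 40th percentile of level, 3295 of 13320 probe sets did so. None of the 30 was called, and without deltamethrin replicate 1 their median was 0.05. Against each gene's vehicle mean, the median member stood at 0.18 and 0.05 on the deltamethrin arrays and at 0.00 on both vehicle arrays. The vehicle values mirror each other by construction, because that mean is taken over the same arrays. They do not measure the spread between vehicle arrays.

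Ndufa9, a subunit that lies beside the ubiquinone site, had log2 levels of 13.20 and 13.26 in deltamethrin-treated cells, against 12.76 and 12.84 in vehicle-treated cells. The groups did not overlap, and the estimate was 0.43 ± 0.16 (SE; adjusted p = 0.334). Its range with any 1 array left out was 0.39 to 0.47. Ndufa6, a peripheral arm subunit, had levels of 11.71 and 11.57 with deltamethrin and 11.19 and 11.34 with vehicle, also without overlap (0.38 ± 0.17). At the other end was Ndufa3, a small membrane arm subunit, with levels of 12.66 and 12.50 in deltamethrin-treated and 12.97 and 12.72 in vehicle-treated cells (-0.27 ± 0.18). Ndufb2 had levels of 10.32 and 10.17 with deltamethrin and 10.29 and 10.48 with vehicle, so that its groups overlapped. The remaining 26 of the other subunits had estimates from -0.11 to 0.30. Ndufb4 and its copy Ndufb4b were at 0.13 and 0.16, and whether their probes tell the copies apart was not tested.

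The catalytic core, which carries the flavin and the iron-sulphur clusters, did not share that leaning: 2 of its 6 measured genes had higher and 4 lower estimates, with a median of -0.08. That median was -0.02 without deltamethrin replicate 2, -0.03 without vehicle replicate 1 and -0.04 with quantile scaling. Ndufv1, which binds NADH and the flavin, had levels of 13.73 and 13.98 in deltamethrin-treated cells and 13.33 and 13.57 in vehicle-treated cells, without overlap. Its estimate was 0.41 ± 0.19 (SE; adjusted p = 0.409). Its partner Ndufv2 had levels of 14.17 and 14.18 with deltamethrin and 14.22 and 13.93 with vehicle, which overlapped. Ndufs1, the largest core subunit and a carrier of several iron-sulphur clusters, stood at 12.95 and 12.92 in deltamethrin-treated and at 12.98 and 13.17 in vehicle-treated cells (-0.14 ± 0.17). Ndufs7, which holds the last cluster before ubiquinone, had 12.54 and 12.41 with deltamethrin and 12.72 and 12.69 with vehicle (-0.23 ± 0.17). Both of these had groups that did not overlap. Ndufs3 and Ndufs8 were at -0.13 and -0.03. None of these genes was called, and a difference between core and other subunits was not tested.

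Among the 8 complex I assembly factors, 5 estimates were higher and 3 lower, with a median of 0.15, which was 0.01 without vehicle replicate 1. Ndufaf7, an arginine methyltransferase that modifies a core subunit, had the highest estimate of all 93 genes. Its levels were 7.85 and 7.75 with deltamethrin and 7.19 and 7.53 with vehicle, without overlap (0.44 ± 0.19, adjusted p = 0.379). Ndufaf1, a factor of the membrane arm, had levels of 8.43 and 8.47 in deltamethrin-treated and 8.29 and 7.94 in vehicle-treated cells, also without overlap (0.34 ± 0.19). Its vehicle arrays lay farther apart than its deltamethrin arrays. Ndufaf4 had levels of 12.44 and 12.20 with deltamethrin and 12.59 and 12.30 with vehicle. Ndufaf8 had levels of 6.79 and 6.93 with deltamethrin and 6.86 and 7.09 with vehicle. The groups of these last genes overlapped.

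**Figure D2:**
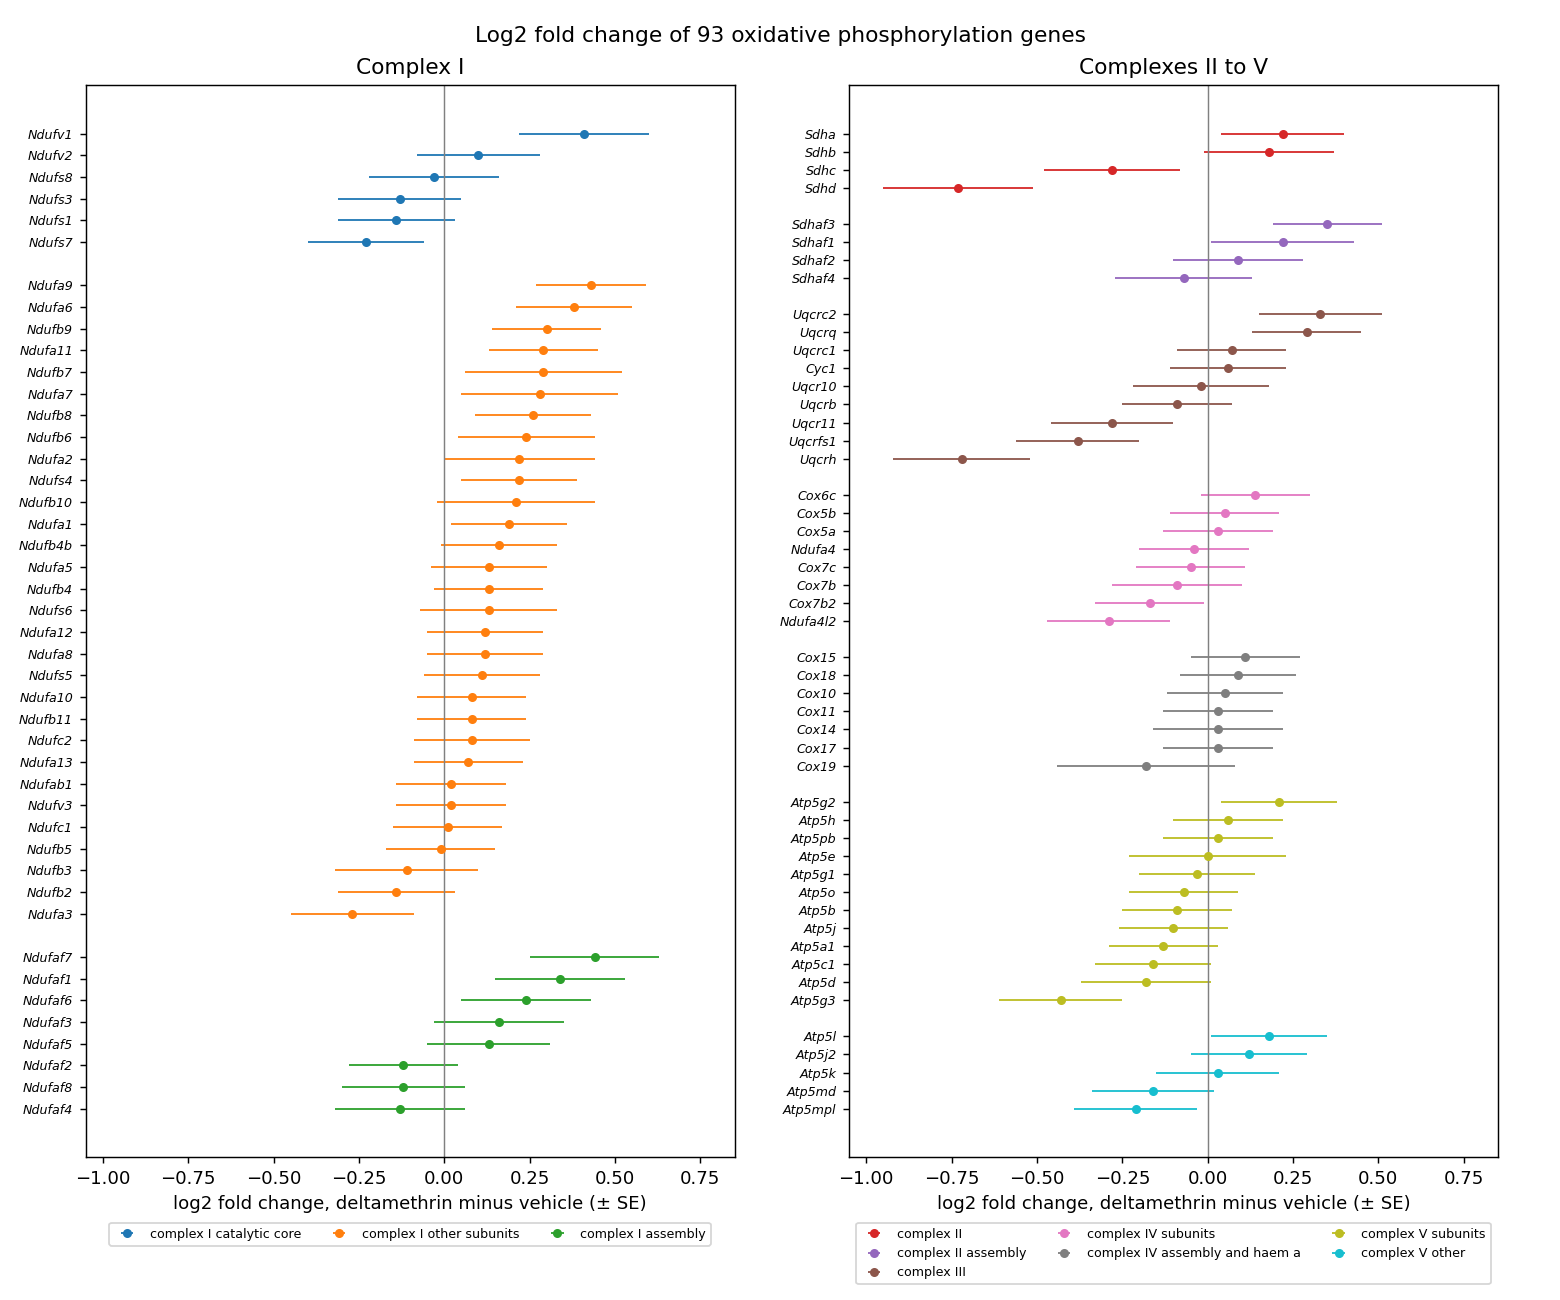
Log2 fold change, deltamethrin minus vehicle, of each of the 93 genes (points) with its standard error from limma (bars, n = 2 arrays each), grouped by complex and role and ordered by size within a group. Most complex I subunits sit to the right of 0 and most ATP synthase subunits at or left of 0, and Sdhd at -0.73 and Uqcrh at -0.72 lie farthest out.

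Complex II held Sdhd, the gene with the lowest estimate of the 93. It has 4 subunits: the flavoprotein Sdha and the iron-sulphur protein Sdhb form the catalytic part, and Sdhc and Sdhd anchor it in the membrane, where they bind haem and ubiquinone. Sdhd had levels of 12.57 and 12.08 in deltamethrin-treated cells, against 13.17 and 12.94 in vehicle-treated cells. Both deltamethrin arrays lay below both vehicle arrays. The log2 fold change was -0.73 ± 0.22 (SE), a level 0.603 times that of vehicle, with an adjusted p of 0.244 in limma. With any 1 array left out it ranged from -0.98 to -0.49.

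The other anchor gene, Sdhc, had levels of 12.32 and 12.32 with deltamethrin and 12.80 and 12.40 with vehicle, which did not overlap (-0.28 ± 0.20). The catalytic genes stood on the other side of 0. Sdha had 11.08 and 11.08 in deltamethrin-treated cells and 10.73 and 11.00 in vehicle-treated cells (0.22 ± 0.18). Sdhb had 15.31 and 15.52 in deltamethrin-treated cells and 15.11 and 15.36 in vehicle-treated cells, where the groups overlapped (0.18 ± 0.19). None of the 4 was called, and the difference between the anchor and catalytic genes was not tested.

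The complex II assembly factors had a median of 0.16, which was -0.01 without deltamethrin replicate 1. Sdhaf3, which helps mature the iron-sulphur subunit, had levels of 7.73 and 7.77 with deltamethrin and 7.45 and 7.36 with vehicle, without overlap (0.35 ± 0.16). Sdhaf1, which serves the same subunit, had 7.08 and 6.73 with deltamethrin and 6.54 and 6.83 with vehicle, with overlap. Sdhaf2, which attaches the flavin to Sdha, was at 0.09. Sdhaf4 was dim, that is below the median of all probe sets of 5.62 in both groups, with 4.72 and 4.58 in deltamethrin-treated and 4.90 and 4.53 in vehicle-treated cells.

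The 9 complex III genes had 4 higher and 5 lower estimates, with a median size, sign dropped, of 0.28. Their median was -0.02. It was -0.13 without deltamethrin replicate 1, 0.04 without deltamethrin replicate 2, -0.09 without vehicle replicate 1 and 0.06 without vehicle replicate 2. Uqcrh, the acidic hinge protein that sits at cytochrome c1, had levels of 12.46 and 12.06 in deltamethrin-treated cells and 12.96 and 12.99 in vehicle-treated cells. The vehicle arrays lay close together and both deltamethrin arrays were lower. The log2 fold change was -0.72 ± 0.20 (SE), a level 0.609 times that of vehicle (adjusted p = 0.209), and it ranged from -0.92 to -0.52 with any 1 array left out.

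Uqcrfs1, the Rieske iron-sulphur protein that passes electrons to cytochrome c1, had levels of 12.63 and 12.45 with deltamethrin and 12.80 and 13.04 with vehicle, without overlap (-0.38 ± 0.18, adjusted p = 0.420). Cyc1, cytochrome c1 itself, overlapped between groups, with 12.21 and 11.97 in deltamethrin-treated cells and 12.03 and 12.04 in vehicle-treated cells. Uqcrc2, a core protein, had 12.10 and 11.92 with deltamethrin and 11.80 and 11.56 with vehicle (0.33 ± 0.18). These genes of 1 enzyme thus had estimates on both sides of 0. Uqcrq, a small subunit beside cytochrome b, had 13.75 and 13.75 with deltamethrin and 13.42 and 13.51 with vehicle (0.29 ± 0.16). Uqcrc1, the other core protein, was at 0.07, Uqcrb at -0.09, Uqcr10 at -0.02 and Uqcr11 at -0.28.

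A mean-variance trend in limma, which lets bright probe sets have a smaller prior variance, called 2 of the 93 genes and 3.63% of all probe sets (806). The 2 were Uqcrh (adjusted p = 0.0322) and Sdhd (adjusted p = 0.0472), both lower in deltamethrin-treated cells, against 1.38% of all probe sets called lower. With that trend Atp5g3 and Ndufa9 were at adjusted p values of 0.0791 and 0.0863. No other fit tried here called any of the 93 genes.

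**Figure D3:**
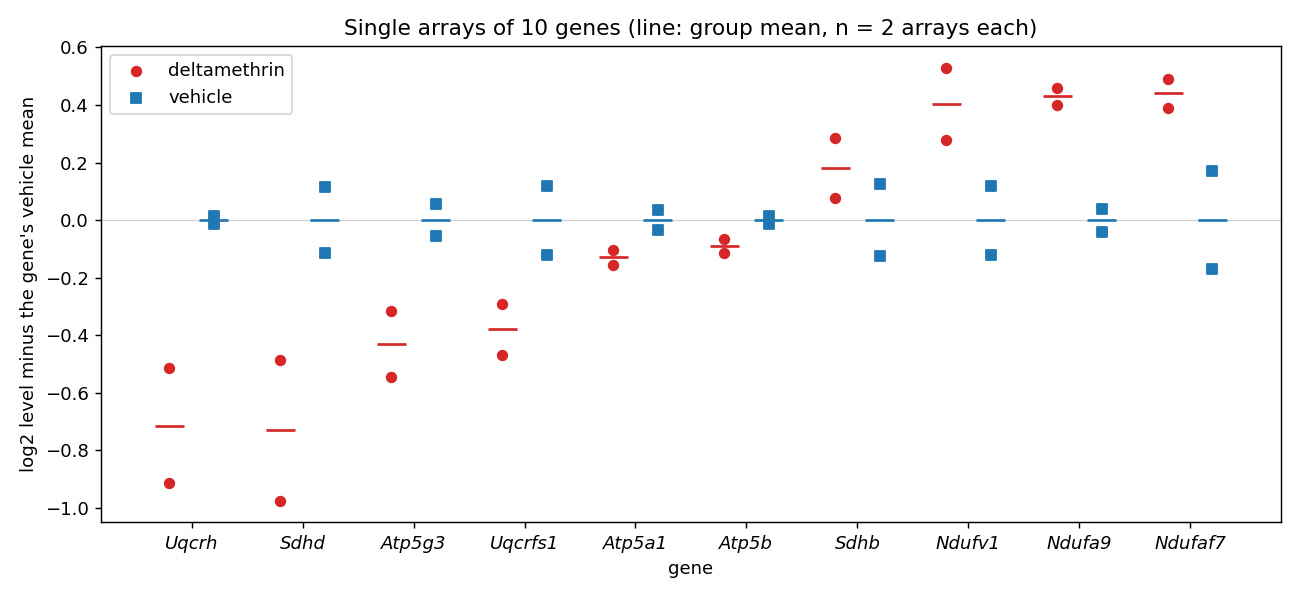
Log2 level of 10 genes on each array (points), as the difference from the gene's vehicle mean, with deltamethrin arrays left of vehicle arrays and lines at the group means (n = 2 arrays each). Sdhd and Uqcrh have both deltamethrin arrays below both vehicle arrays by the widest margin of mean, Ndufa9 and Ndufaf7 have both above, and Sdhb overlaps.

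Sdhd and Uqcrh, which lay farthest out, each share a promoter region with a gene on the opposite strand. Such neighbours were therefore read for all members. Atp5g3 and Ndufa9 had no such start within 1000 bases. Of the 78 genes with a RefSeq window, 26 had a start of another gene within 1000 bases upstream on the other strand, and for 24 pairs that gene was read by 1 probe set. The start of Timm8b, a chaperone of the mitochondrial intermembrane space, lies 52 bases from that of Sdhd. Timm8b had levels of 9.72 and 9.42 in deltamethrin-treated cells and 9.52 and 9.24 in vehicle-treated cells, which overlapped (0.19 ± 0.20). The start of Lrrc41, a leucine-rich repeat gene, lies 199 bases from that of Uqcrh. Lrrc41 had 10.31 and 10.59 with deltamethrin and 10.34 and 10.61 with vehicle, so that the groups interleaved (-0.03 ± 0.19). The lower estimates of Sdhd and Uqcrh were not seen for the genes across their promoters. Sdhd and Uqcrh were singled out because they lay farthest out, and the difference from their neighbours was not tested. Of the 24 neighbours 1 was at an unadjusted p below 0.05, Kctd2, at 0.61 ± 0.17, while its partner Atp5h was at 0.06.

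**Figure D4:**
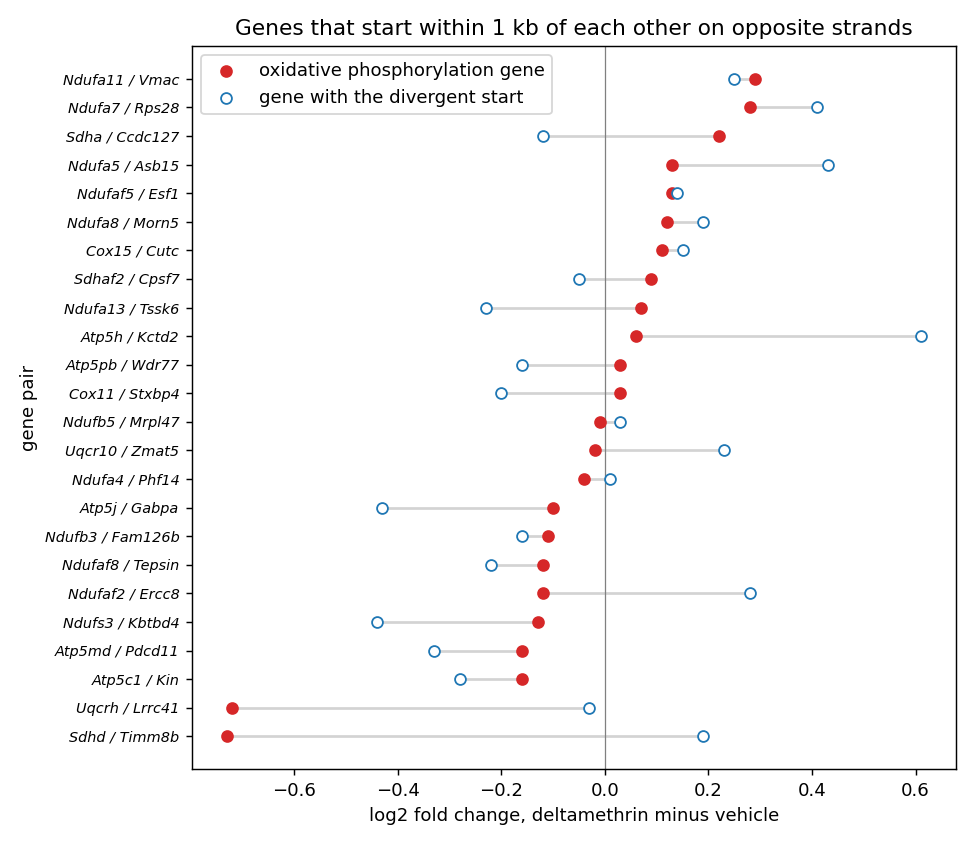
Log2 fold change, deltamethrin minus vehicle (horizontal axis), of 24 oxidative phosphorylation genes (filled points) and of the gene that starts within 1000 bases on the opposite strand (open points), 1 pair a row. Sdhd at -0.73 and Uqcrh at -0.72 stand far to the left of Timm8b at 0.19 and Lrrc41 at -0.03.

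Most of the complex IV subunits taken by the symbol rule lay close to 0. Further complex IV subunits outside the rule, among them Cox6a2 and Cox4i2, are described below. The 8 estimates within the rule ran from -0.29 to 0.14. They had a median size of 0.07 and a median of -0.04, which was 0.01 without deltamethrin replicate 2. Cox5a, a subunit on the matrix side, had levels of 13.16 and 13.18 with deltamethrin and 13.10 and 13.18 with vehicle. Cox5b, a zinc-binding subunit, had 15.09 and 15.03 in deltamethrin-treated and 15.01 and 15.02 in vehicle-treated cells, with an interval of the log2 fold change from -0.35 to 0.44. Cox6c, a small membrane subunit, had 15.65 and 15.59 with deltamethrin and 15.46 and 15.50 with vehicle (0.14 ± 0.16). Cox7b2, known as a testis form of Cox7b, had 10.98 and 10.96 with deltamethrin and 11.19 and 11.09 with vehicle (-0.17 ± 0.16). None of these was called. Cox7b was at -0.09 and Cox7c at -0.05.

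Ndufa4, named for complex I but known as a subunit of complex IV, had levels of 16.02 and 15.96 in deltamethrin-treated and 16.07 and 15.99 in vehicle-treated cells, with overlap (-0.04 ± 0.16). Its paralog Ndufa4l2, a hypoxia-induced gene, was dim, with 2.54 and 2.80 with deltamethrin and 3.02 and 2.89 with vehicle. Its estimate was -0.29 ± 0.18, and the table has no detection call that would show whether this signal was above background.

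The complex IV assembly and haem a genes were close to 0 too, with a median size of 0.05, 6 higher and 1 lower estimate. Cox15, which makes haem a, had levels of 12.82 and 12.72 with deltamethrin and 12.67 and 12.66 with vehicle (0.11 ± 0.16). Cox10, which acts just before it, was at 0.05. Cox18, which inserts part of a mitochondrially encoded subunit, had 11.61 and 11.60 with deltamethrin and 11.41 and 11.63 with vehicle. Cox19, a copper-route factor, had 9.40 and 8.68 with deltamethrin and 9.14 and 9.30 with vehicle. Its deltamethrin arrays lay on either side of the vehicle arrays and 0.72 apart, the widest replicate gap of the 93 genes. Cox11, Cox14 and Cox17 were each at 0.03.

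Among the main subunits of ATP synthase more estimates were lower than higher, the reverse of the other subunits of complex I. Of these 12 main subunits 3 had higher and 8 lower estimates, where 52.9% of all probe sets were lower, and 1 was at 0.00. With so few genes, a difference from that share was not tested. With the small membrane subunits included, 6 of 17 estimates were higher and 10 lower. The median of the 12 was -0.08, as it was for the complex I core, and -0.05 with quantile scaling. Both deltamethrin arrays lay below both vehicle arrays for 6 of the 12, where 23.5% of all probe sets did so. Above the 40th percentile of level, 3406 of 13320 probe sets did so. Against each gene's vehicle mean, the median member of the 12 stood at -0.08 and -0.07 on the deltamethrin arrays. It stood at 0.01 and -0.01 on the vehicle arrays, which mirror each other by construction and do not measure the vehicle spread. The difference from the other subunits of complex I was not tested.

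The F1 part of the enzyme holds the catalytic head and consists of subunits alpha to epsilon. The 5 F1 genes had 4 lower estimates with a median of -0.13, where 52.9% of all probe sets were lower. Atp5a1, subunit alpha, had levels of 16.81 and 16.86 in deltamethrin-treated cells and 16.93 and 17.00 in vehicle-treated cells (-0.13 ± 0.16). Atp5b, subunit beta with the active site, had 17.65 and 17.70 in deltamethrin-treated cells and 17.78 and 17.75 in vehicle-treated cells (-0.09 ± 0.16). Neither overlapped between groups and neither was called. Atp5d, subunit delta, had 16.25 and 16.12 with deltamethrin and 16.51 and 16.21 with vehicle, with overlap. The highest value of the whole table was 18.75, so these genes lie near the top of the range. Whether differences are compressed there was not tested.

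The proton-carrying ring is built of subunit c, which mouse cells make from Atp5g1, Atp5g2 and Atp5g3. These genes encode the same mature protein with different import sequences. Atp5g3 had levels of 14.52 and 14.29 in deltamethrin-treated cells and 14.89 and 14.78 in vehicle-treated cells, without overlap (-0.43 ± 0.18, adjusted p = 0.359). Atp5g2 had 15.98 and 16.00 with deltamethrin and 15.85 and 15.72 with vehicle, also without overlap but on the other side (0.21 ± 0.17). Atp5g1 was at -0.03. The intervals of Atp5g3 (-0.85 to -0.01) and Atp5g2 (-0.19 to 0.60) overlapped, and their difference was not tested.

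In the stalk that holds the head in place, Atp5h (subunit d) had levels of 16.01 and 15.91 with deltamethrin and 15.90 and 15.90 with vehicle (0.06 ± 0.16). Atp5pb, Atp5j and Atp5o of the same stalk were at 0.03, -0.10 and -0.07. The 5 small membrane subunits had a median of 0.03, which was -0.11 without deltamethrin replicate 1 and -0.01 without vehicle replicate 1. Atp5l (subunit g) had 11.92 and 11.90 with deltamethrin and 11.81 and 11.65 with vehicle. Atp5j2 (subunit f) had 15.70 and 15.51 with deltamethrin and 15.46 and 15.52 with vehicle. Both estimates were positive, and the groups of Atp5j2 overlapped. Atp5mpl had 13.97 and 13.82 with deltamethrin and 13.99 and 14.22 with vehicle (-0.21 ± 0.18). Atp5md, known to help pair the enzyme into dimers, had 15.17 and 14.86 with deltamethrin and 15.21 and 15.13 with vehicle (-0.16 ± 0.18).

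Over all 93 genes, groups that did not overlap were seen for 49, 29 with higher and 20 with lower deltamethrin arrays. That is 52.7%, against 43.9% of all probe sets and 50.3% of the probe sets above the 40th percentile of level. The subunits of all complexes together (74 genes) had a median of 0.04, and the 19 assembly factors had a median of 0.09. The replicate arrays differed little for these genes: the SD of the difference between arrays was 0.19 for deltamethrin and 0.20 for vehicle, against 0.37 and 0.33 over all probe sets. These genes were also brighter, with a median mean level of 12.69 against a median of 5.62 over all values. The SD was not taken over other probe sets of a like level. Of the 93 genes, 2 were dim in both groups, Sdhaf4 and Ndufa4l2.

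Further genes of the pathway were read from lists outside the symbol rule. In the list of cytochrome c and complex IV isoform genes, 1 of the 14 genes measured rose and none of the others was called. Among all 22206 probe sets, 79 were called higher. The list had 1 higher and 1 lower estimate at an unadjusted p below 0.05, where 6.83% of all probe sets were higher and 6.84% lower. The riser was Cox6a2, the heart and skeletal muscle form of subunit 6a, with levels of 9.93 and 9.96 in deltamethrin-treated and 7.10 and 7.08 in vehicle-treated cells, a log2 fold change of 2.86 ± 0.16 (adjusted p = 0.00897). No probe set of the table, Cox6a2 included, was called without moderation, with the replicate block or with any 1 array left out. The widespread form Cox6a1 was at -0.10. Cox7a2l was at 0.36 and Cox4i1 at 0.21, while Cox4i2, a hypoxia-induced and here dim form, was at -0.83 ± 0.21 (adjusted p = 0.192) and the dim Cox8b at -0.40. Cytochrome c, Cycs, was at -0.09. Of 13 subunit genes of mitochondrial DNA searched by symbol, 0 were found among the named probe sets, so they were not read here.

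In the list of other assembly factors 0 of 37 measured genes were called, and 2 had higher and 1 a lower estimate at an unadjusted p below 0.05. Over all probe sets 6.83% were higher and 6.84% lower at that threshold. The extremes were Tmem242 of ATP synthase assembly at 0.68 ± 0.22, the complex III factor Uqcc2 at 0.52 ± 0.17, Cmc2 of complex IV at -0.77 ± 0.16 and Cox20, also of complex IV, at -0.38 ± 0.19. Lyrm7, which delivers the Rieske protein to complex III, was at 0.52 ± 0.24. With a mean-variance trend Cmc2 was called lower (adjusted p = 0.0425).

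Coenzyme Q, or ubiquinone, carries electrons from complexes I and II to complex III. Of 12 measured genes linked to coenzyme Q, not all of them synthesis enzymes, 0 were called. At an unadjusted p below 0.05, 4 had higher and 1 a lower estimate, where 6.83% of all probe sets were higher and 6.84% lower. The median of the 12 was 0.16. Coq10a was at 0.61 ± 0.17 and the prenyltransferase Coq2 at 0.55 ± 0.20. Coq7, the hydroxylase of a late step, was at -0.61 ± 0.16, with 11.14 and 11.13 in deltamethrin-treated cells and 11.73 and 11.76 in vehicle-treated cells. It was called lower with a mean-variance trend (adjusted p = 0.0398). Coq8a, a dim gene of this list, was at -0.36 ± 0.43.

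Among 14 measured regulators of respiratory chain transcription 0 were called, with a median of 0.05. At an unadjusted p below 0.05 there were 0 with a higher and 1 with a lower estimate, Pprc1, a coactivator related to Ppargc1a, at -0.41 ± 0.17, where 6.84% of all probe sets were lower. Polrmt, the mitochondrial RNA polymerase, was at 0.36 ± 0.18 and the mitochondrial termination factor family member Mterf3 at 0.28 ± 0.19. Nrf1 and Gabpa had the lowest estimates, as given with the promoters. The coactivator Ppargc1a was dim, at 4.19 and 4.19 with deltamethrin and 4.28 and 3.94 with vehicle, and Tfam, which packs mitochondrial DNA, was at 0.08 ± 0.17. Of 6 measured carriers and uncoupling proteins 0 were called. The adenine nucleotide carriers Slc25a4 and Slc25a5 were at -0.13 and -0.11, the dim Slc25a31 and Ucp3 at 0.23 and -0.32, and the phosphate carrier Slc25a3 was at -0.01.

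The arrays' medians lay between 5.61 and 5.63. Of the sympathoadrenal markers, which define neuroblastoma, all 9 measured were above the median of all probe sets, whereas 2 of 19 measured markers of fibroblasts, macrophages, astrocytes and muscle were. The mean log2 level of the 9 markers was 11.86 to 12.11 on deltamethrin arrays and 12.39 to 12.46 on vehicle arrays, with a median log2 fold change of -0.50 and 0 called. At an unadjusted p below 0.05 there were 5 of the 9 with lower and 1 with a higher estimate, against 6.84% and 6.83% of all probe sets. The higher one was Th at 0.90 ± 0.27, and the lowest estimate was that of Dbh at -1.26 ± 0.47. With a mean-variance trend 2 were called lower, Isl1 at -1.14 ± 0.17 (adjusted p = 0.00173) and Chgb at -0.54 ± 0.16 (adjusted p = 0.0282), where 1.38% of all probe sets were. The part of that difference in the results above was not tested. The labels do not state whether replicate arrays came from separate cultures, so the p-values reflect only the spread between these arrays, and that spread may be technical. No batch label was found, and a batch cannot be told apart from the treatment. In bulk RNA, fewer cells with a transcript and less of it per cell cannot be told apart either.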

How the data were processed

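Total RNA from Neuro-2a cells was read on Affymetrix Clariom S Mouse arrays, 2 from deltamethrin-treated and 2 from vehicle-treated cells, and groups came from the sample titles. The deposited values are log2 expression, 1 per probe set and array, made by the authors: the submitters' processing notes name RMA and Transcriptome Analysis Console. The versions, the RMA variant and the genome build were not given in the sources used here. RMA makes the arrays' distributions alike, so a shift shared by most genes cannot be seen, and no detection call was in the table. The values were used as deposited. All 22206 probe sets were fitted with limma 3.58.1 (R 4.3.3; lmFit, eBayes), with 2 residual and 4.43 prior degrees of freedom, two-sided tests and Benjamini-Hochberg adjustment over the whole table. An adjusted p below 0.05 was called. The fit was tested on simulated data. Symbols came from the platform annotation and promoter sequences from RefSeq (GRCm38.p6). Depth has no meaning for arrays: their number limits the precision. The members, classes, lists and tests were chosen with earlier results of these data known. Array values are given for 43 members: in each class up to 2 of the highest and up to 2 of the lowest estimates, any member called with or without a mean-variance trend, and 12 catalytic or paired subunits. For lists outside the 93 genes, called genes and up to 2 estimates at either end were to be named. Alternatives were a replicate block, quantile and median scaling, a filter at the 40th percentile of level, a mean-variance trend, no moderation, 1 probe set per gene and each array left out.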

Additional observations from a re-analysis of the deposited data

How the results depend on the processing

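The count of called genes was 0 in all fits tried except that with a mean-variance trend, where it was 2. The count at an unadjusted p below 0.05 was 10 with that trend, 7 without moderation and 0 to 3 with 1 array left out. The share of all probe sets at that threshold was 15.9% with the trend, 10.3% without moderation and 7.34% to 12.5% with 1 array left out. The count of genes whose groups did not overlap was 65 to 76 with 1 array left out, where 69.4% to 73.7% of all probe sets did not. Over all probe sets the calls were 806 with the trend, 312 above the 40th percentile of level, 0 without moderation, 0 with the replicate block and 0 to 0 with 1 array left out. The replicate block rests on the titles' numbers, which nothing ties to a culture or day. Replicate differences of both groups correlated at 0.13 over probe sets, and with the block 0 genes were called and 5 were at an unadjusted p below 0.05, against 14.5% of all probe sets. Quantile scaling gave a median of -0.04 for the complex I core and -0.05 for the main ATP synthase subunits. With 1 array left out, medians ran from 0.03 to 0.08 for all 93 genes, from -0.07 to -0.02 for the complex I core, from 0.05 to 0.18 for its other subunits, from 0.01 to 0.22 for its assembly factors, from -0.10 to -0.01 for complex II, from -0.01 to 0.28 for its assembly factors, from -0.13 to 0.06 for complex III, from -0.08 to 0.01 and from 0.02 to 0.09 for complex IV subunits and assembly, and from -0.08 to -0.07 and from -0.11 to 0.16 for main and small ATP synthase subunits. Estimates of 28 of the 93 genes changed sign in at least 1 alternative, none of them over 0.29 in size. The cause was not tested.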
